A study of Mus musculus with 8 samples.

Results

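The nuclear genes of the mitochondrial respiratory chain were examined in mammary tumors that carry or lack CD95, raised in mice without or with an adaptive immune system. Members were taken by name: protein-coding genes whose mouse symbol starts with Nduf, Uqcr, Cox4i, Cox5, Cox6, Cox7 or Cox8, together with Sdha, Sdhb, Sdhc, Sdhd and Cycs. The rule gave 77 of the 25006 gene identifiers counted, after 7 processed pseudogenes with such names were left out. Of these, 74 passed the filter on low counts, which kept 15310 genes in all. Cox7b2 and Cox8c had 0 counts in all 8 libraries, and Cox8b, with at most 5 counts in a library, also failed the filter. By role, the 77 genes held 7 core and 29 accessory subunits of complex I, 8 complex I assembly factors, 4 subunits of complex II, 8 of complex III, 11 of complex IV, cytochrome c, the supercomplex factor Cox7a2l and 8 isoforms of restricted expression. The Ndufaf genes are not subunits of the finished complex, so the set is wider than the respiratory chain subunits in the strict sense.

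Complex I oxidises NADH and complex II oxidises succinate, and both pass electrons to ubiquinone. Complex III carries the electrons to cytochrome c and complex IV delivers them to oxygen, and the proton gradient that complexes I, III and IV build drives ATP synthase. A small core of each of complexes I, III and IV is encoded in the mitochondrial genome, while the genes described here are transcribed in the nucleus. Their promoters are known targets of NRF1, GABPA, YY1 and ERRA, which act with coactivators of the PGC-1 family, and several complex IV subunits have alternative isoforms tied to muscle, testis or low oxygen.

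The 8 libraries formed 4 groups of 2. 4T1 is a mouse mammary carcinoma line that stands in for triple-negative breast cancer. NSG mice have no mature T cells, B cells or NK cells, and Balb/c mice are the immunocompetent strain from which 4T1 was derived. The NSG wild-type and Balb/c wild-type groups each held a tumor library of the parental line and of a line stably expressing vCas9, and the NSG knockout and Balb/c knockout groups each held CD95 (Fas) knockout clones 54 and 69, made with CRISPR/Cas9. All tumors arose from cells placed in the fat pad and were taken within 20 days. The ages of the mice and the number of tumors behind a library are not given in the sources used here, and nothing says that libraries of a group came from more than 1 experiment. Because the libraries of a group are different lines, the p-values measure the spread between lines, and clonal origin and loss of CD95 cannot be told apart.

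Library totals ranged from 8680070 to 19655945 counts, and each pair within a group differed by more than sampling noise. Fas was read at 33.9 and 22.6 CPM (the usual depth-scaled count unit, on TMM-scaled totals) in NSG wild type, 29.5 and 12.9 in NSG knockout, 51.6 and 46.9 in Balb/c wild type and 27.1 and 33.7 in Balb/c knockout. The clone 54 library in NSG lay between its wild-type libraries, so the Fas counts do not check the knockout label, and reads outside an edited site would not be lost. All 9 keratin and epithelial markers of the tumor list were detected, with summed levels of 1210 to 3600 CPM in NSG, 845 and 2150 CPM in Balb/c wild type, and 761 CPM in clone 54 and 4300 CPM in clone 69 of Balb/c. The T cell markers summed to 5.14 to 11.8 CPM in NSG and 414 to 526 CPM in Balb/c tumors. The 13 mitochondrially encoded genes were listed at 0 counts in all 8 libraries, so the mitochondrial share of the chain was not analysed here.

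The respiratory chain genes were lowest in the wild-type tumors of Balb/c mice. Their counts summed to 3300 and 3171 CPM in the parental and vCas9 libraries of NSG wild type and to 3015 and 3154 CPM in clones 54 and 69 of NSG knockout. In Balb/c wild type the sums were 2176 and 2290 CPM, and in Balb/c knockout 4235 and 3315 CPM. On these TMM-scaled totals the 4 NSG libraries lay close together, and both Balb/c wild-type libraries lay below all others. Both Balb/c knockout libraries lay above all others, clone 69 only just (3315 against at most 3300 CPM in NSG). As a plain share of counts, clone 69 of Balb/c was at 0.3151%, within the NSG range of 0.3095% to 0.3654%. By that measure Balb/c wild type was at 0.2025% and 0.211%, and clone 54 of Balb/c at 0.4073%. The Balb/c wild-type group had the lowest mean for 66 of the 74 tested members, against 32.5% of all tested genes. Both of its libraries were below all 6 other libraries for 57 members, against 16.6% of all genes. The clone 54 tumor of Balb/c gave the highest value of 58 members, a count that has no share over all genes beside it. These tumors are mixtures, so fewer cells of a type and less RNA per cell cannot be told apart.

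**Figure D1:**
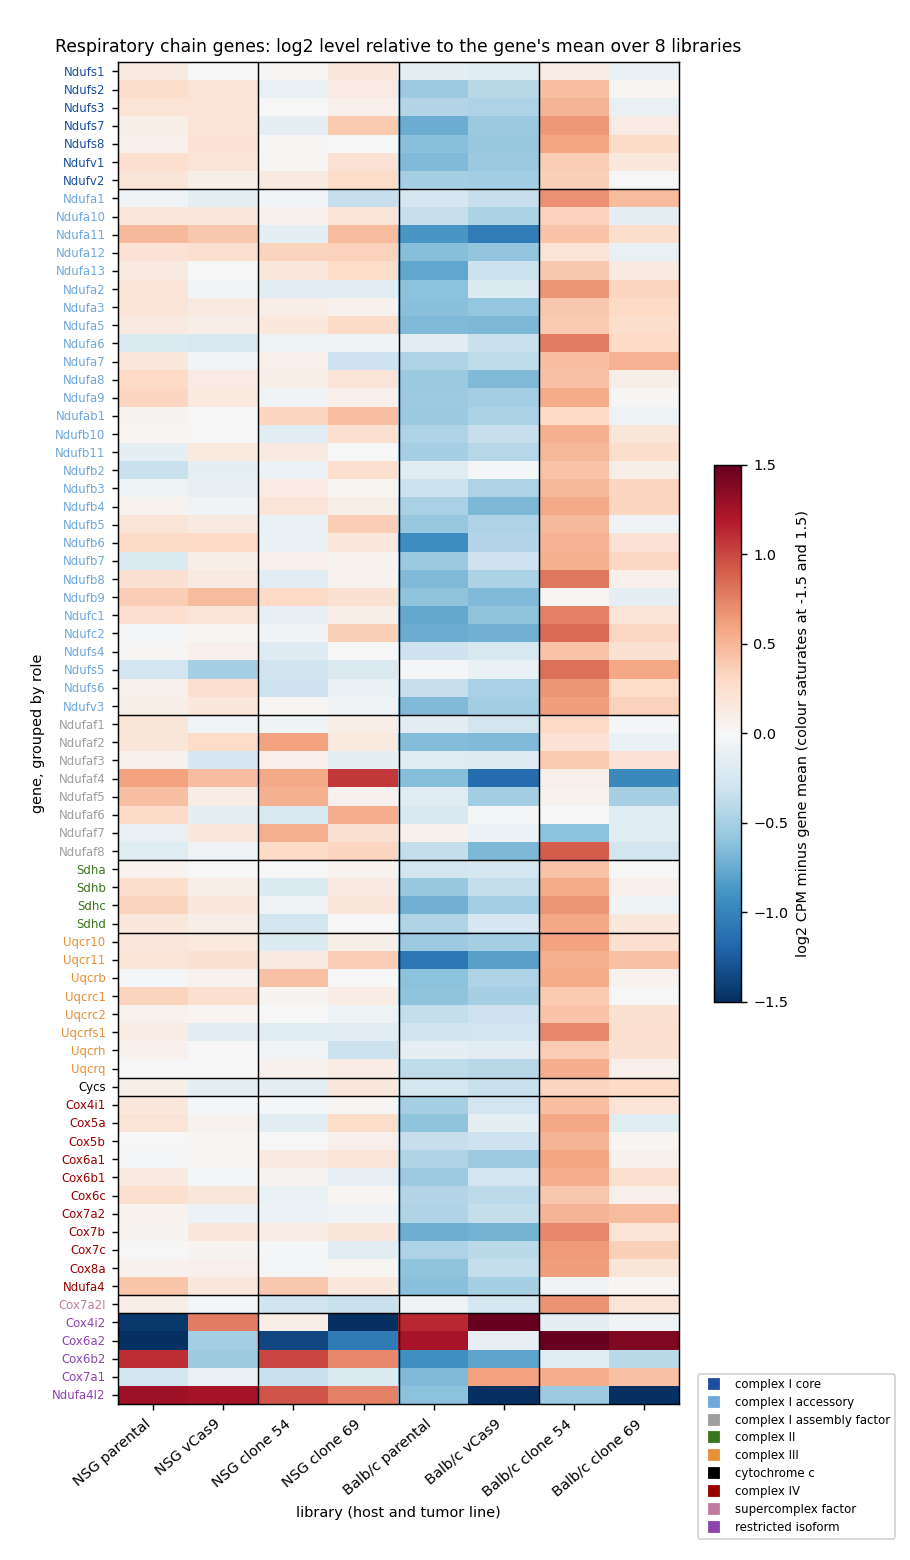
Heat map of the 74 tested members (rows, grouped by role and coloured by role in the row names) in the 8 libraries (columns, with host and line). Colour gives log2 CPM minus the gene's mean over the libraries, and the block of lower values in the 2 Balb/c wild-type columns holds 57 members that were below all 6 other libraries in both.

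The members also differed in how far they moved together. The median deviation of the 74 members from their own means was 0.14 and 0.08 (log2) in NSG wild type, 0.00 and 0.09 in NSG knockout, -0.52 and -0.43 in Balb/c wild type and 0.51 and 0.16 in Balb/c knockout, with a pooled SD within groups of 0.13. Complex I accessory subunits were at -0.56 and -0.47 in the Balb/c wild-type libraries, complex III at -0.47 and -0.44, and complex IV at -0.50 and -0.36. The assembly factors were at -0.21 and -0.40. The clones were less alike than the wild-type lines: in Balb/c, 70 members were higher in clone 54 than in clone 69 (51.2% of all genes were), with a median ratio of 1.27. In NSG, 25 members were higher in clone 54 and the median ratio was 0.95, while the parental to vCas9 ratio was 0.96 in Balb/c and 1.04 in NSG.

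Levels between genes were compared per kilobase of exon union. Cox8a, a small complex IV subunit, was highest at 166 CPM per kb, and Cox6b2, an isoform known from testis, was lowest of the tested members at 0.36 CPM per kb. With the principal transcript as the length, Cox4i1 was highest instead, at 215 CPM per kb. Mean levels of the tested members ran from 0.40 to 164 CPM with a median of 35 CPM, against 19.2 CPM for all tested genes, and 61 members averaged at least 10 CPM.

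The host comparison in wild-type tumors asked how the same lines differed between Balb/c and NSG mice. Host strain and immune status change together here, so they cannot be told apart. In Balb/c, 26 of the 74 members were lower than in NSG by edgeR's quasi-likelihood test at an adjusted p under 0.05, where 16.2% of all genes were, and 0 members were higher, where 15.3% of all genes were. The calls were spread over the complexes: 4 of 7 core and 12 of 29 accessory subunits of complex I, 2 of 8 assembly factors, 1 of 4 complex II, 3 of 8 complex III and 3 of 11 complex IV subunits, and 1 of 5 tested restricted isoforms. The median member log2 change was -0.55, against -0.08 over all genes. Both Balb/c libraries lay below both NSG libraries for 65 members, against 41% of all genes. With line as a replicate block, 6 members were called, all lower (8.11%), where 13.5% of all genes were called in either direction. The share of all genes called lower under the block was not computed. Leaving out either NSG wild-type or either Balb/c wild-type library left 2 to 5 calls, all lower. Those fits leave 1 library in a group, and the median member log2 change in them ran from -0.58 to -0.52. Clone 69 of Balb/c is in neither group compared but enters the filter, the scaling and the estimate of spread. Leaving it out gave a median member log2 change of -0.55.

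Among the core subunits of complex I, Ndufv1, which carries the NADH-binding site, had 54.7 and 52.6 CPM in NSG wild type and 28.8 and 31.2 CPM in Balb/c wild type. The groups did not overlap, and the log2 change was -0.84 (SE 0.16, adjusted p = 0.00919 by edgeR). Ndufs1, the largest core subunit, had 66.9 and 60.8 CPM in NSG and 55.0 and 53.4 CPM in Balb/c, a log2 change of -0.24 that did not pass (SE 0.16, adjusted p = 0.264 by edgeR). Both Balb/c values of Ndufs1 were the lower ones, but by a small step. Among accessory subunits, Ndufa11 of the membrane arm fell from 28.8 and 27.2 CPM to 11.1 and 9.84 CPM, a log2 change of -1.42 (SE 0.24, adjusted p = 0.00631 by edgeR). Ndufb9 fell from 72.6 and 78.0 CPM to 36.8 and 35.2 CPM (log2 fold change -1.06, SE 0.15, adjusted p = 0.00345 by edgeR), the smallest adjusted p of any member here. Ndufb6 and Ndufc1, both small membrane-arm subunits, changed by -0.97 (SE 0.27, adjusted p = 0.0308 by edgeR) and -0.92 (SE 0.25, adjusted p = 0.0270 by edgeR). The direction was the same in all 18 alternatives for each of these accessory subunits, and Ndufb9 passed in all of them, Ndufa11 in 16 and Ndufb6 and Ndufc1 in 12 each, with adjusted p up to 0.170 and 0.142 by edgeR.

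The assembly factor Ndufaf4, which is needed early in building complex I, had 17.0 and 15.4 CPM in NSG wild type and 7.05 and 4.92 CPM in Balb/c wild type. Its log2 change was -1.44 (SE 0.38, adjusted p = 0.0262 by edgeR). Ndufaf2, which joins late assembly, changed by -0.92 (SE 0.30, adjusted p = 0.0485 by edgeR) and passed in only 4 of 18 alternatives. Ndufaf7, a methyltransferase that acts on a core subunit, overlapped between the groups, with 11.4 and 13.8 CPM in NSG and 12.8 and 11.6 CPM in Balb/c.

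In complex II, Sdhc, a membrane anchor, fell from 65.6 and 58.3 CPM to 31.6 and 36.7 CPM (log2 fold change -0.86, SE 0.25, adjusted p = 0.0338 by edgeR). The catalytic flavoprotein Sdha had 133 and 129 CPM in NSG and 106 and 107 CPM in Balb/c, a log2 change of -0.29 that did not pass (adjusted p = 0.229 by edgeR). In complex III, Uqcr11, the smallest subunit, fell from 40.2 and 41.1 CPM to 16.4 and 20.0 CPM (log2 fold change -1.16, SE 0.17, adjusted p = 0.00436 by edgeR) and passed in all 18 alternatives. The core protein Uqcrc1 changed by -0.84 (SE 0.17, adjusted p = 0.0121 by edgeR). The Rieske iron-sulfur protein Uqcrfs1 had a log2 change of -0.27 that did not pass (adjusted p = 0.320 by edgeR). Cycs, cytochrome c itself, had 54.2 and 46.2 CPM in NSG and 42.3 and 40.3 CPM in Balb/c, and its log2 fold change of -0.28 did not pass either (adjusted p = 0.223 by edgeR). In complex II the fitted changes ran from -0.29 for Sdha to -0.86 for Sdhc, and differences between members were not tested.

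In complex IV, Cox7b, a small nuclear subunit, had 70.5 and 76.8 CPM in NSG wild type and 40.9 and 41.8 CPM in Balb/c wild type, and it was among the 3 called. Ndufa4, first assigned to complex I and now placed in complex IV, fell from 73.3 and 61.3 CPM to 35.4 and 38.7 CPM (log2 fold change -0.86, SE 0.17, adjusted p = 0.0102 by edgeR). The abundant isoform Cox4i1, a regulatory subunit, had 179 and 159 CPM against 114 and 132 CPM, a log2 change of -0.46 that did not pass (adjusted p = 0.0740 by edgeR).

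**Figure D2:**
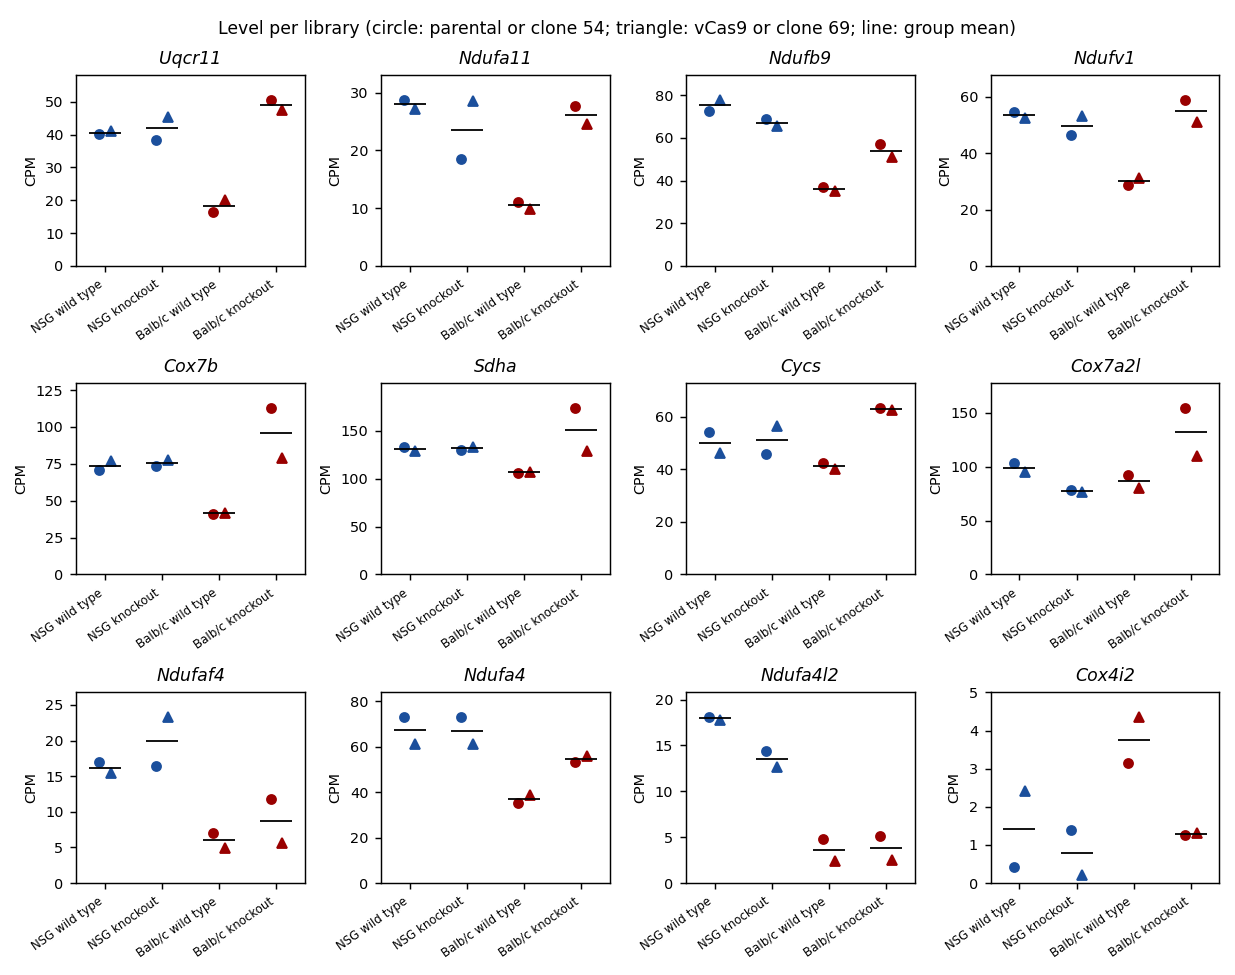
CPM of 12 members in each of the 8 libraries, by group, with a linear axis from 0. Circles are the parental line or clone 54, triangles the vCas9 line or clone 69, and lines the mean of 2 libraries. Uqcr11 drops to 16.4 and 20.0 CPM in Balb/c wild type and is at 50.7 and 47.6 CPM in Balb/c knockout, while Ndufa4l2 is low in both Balb/c groups.

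The same host comparison in knockout tumors contrasts the 4 knockout libraries, and the wild-type libraries enter only through the filter, the scaling and the shared estimate of spread. Here 12 members were higher in Balb/c than in NSG, where 15.7% of all genes were, and 3 were lower, where 15.4% of all genes were. The count of higher members is near the background. The median member log2 change was 0.29, against 0.02 over all genes, and 0.08 without clone 54 of Balb/c, with 42 members higher and 32 lower. The 12 were Cox6a2, Ndufs5, Ndufa1, Cox7a2l, Ndufs6, Uqcrfs1, Ndufa2, Ndufa6, Cox7c, Ndufa7, Cox7a2 and Ndufv3, and 7 of them are complex I accessory subunits. Cox6a2 passed the filter on low counts only through its Balb/c libraries, so its call supports nothing. With line as a replicate block 3 members were called (4.05%, against 18.8% of all genes), and after removal of GC content and length trends 7 (1 higher and 6 lower, 9.46% against 31.7%). Leaving out each library in turn gave from 1 call without clone 69 of NSG (1.35%, against 15.6% of all genes) to 27 without clone 69 of Balb/c (36.5%, against 29.6%). The median was 0.06 after removal of those trends and 0.09 with total-count scaling, against 0.29.

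Ndufs5, a subunit at the intermembrane-space face of complex I, had 7.17 and 7.66 CPM in NSG knockout and 16.0 and 13.5 CPM in Balb/c knockout, and it rose by 0.99 on the log2 scale (SE 0.23, adjusted p = 0.0144 by edgeR). Ndufa1, whose gene is on the X chromosome, had 27.4 and 22.1 CPM in NSG and 45.3 and 39.2 CPM in Balb/c (log2 fold change 0.78, SE 0.18, adjusted p = 0.0142 by edgeR). Cox7a2l, which joins complexes III and IV in supercomplexes, had 78.1 and 76.4 CPM in NSG knockout and 154 and 110 CPM in Balb/c knockout (log2 fold change 0.78, SE 0.19, adjusted p = 0.0196 by edgeR). In all 3 genes both Balb/c values lay above both NSG values. Ndufs5 passed in 13, Ndufa1 in 15 and Cox7a2l in 11 of 19 alternatives. Their log2 fold changes were 0.58, 0.32 and 0.45 after removal of GC content and length trends. Of the 8 assembly factors, 2 fell and 0 rose, where 15.4% of all genes fell and 15.7% rose. Ndufaf4, the early factor, had 16.5 and 23.4 CPM in NSG and 11.7 and 5.62 CPM in Balb/c (log2 fold change -1.19, SE 0.37, adjusted p = 0.0441 by edgeR). Ndufaf7 fell from 17.8 and 14.3 CPM to 7.99 and 10.8 CPM (log2 fold change -0.78, SE 0.25, adjusted p = 0.0465 by edgeR). Ndufaf4 passed in 9 and Ndufaf7 in 8 of 19 alternatives, with the direction kept in each.

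**Figure D3:**
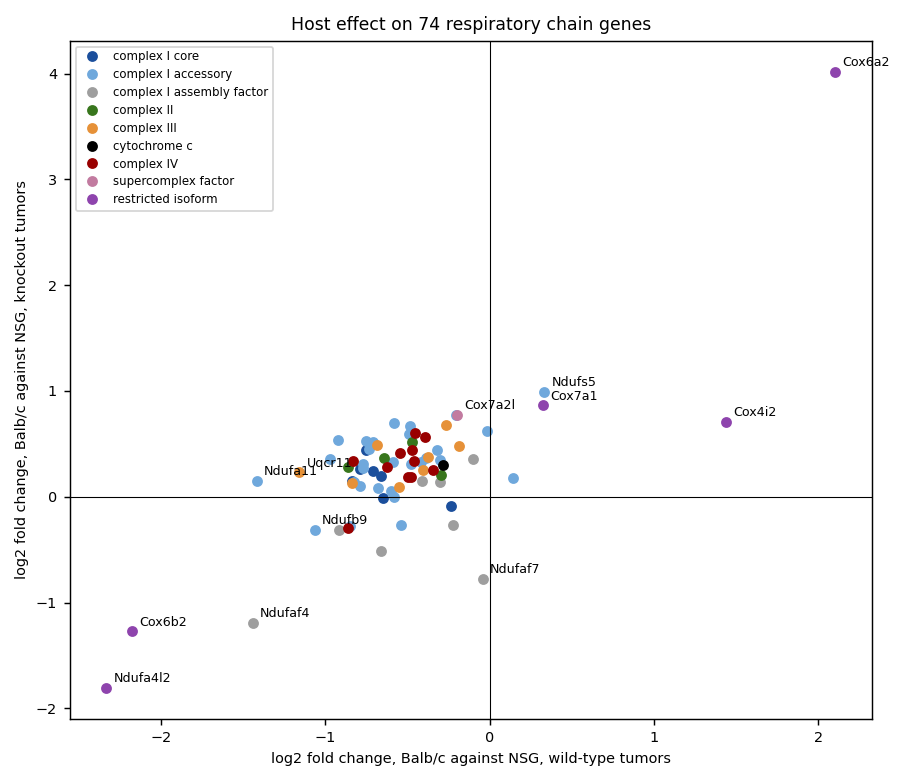
Log2 fold change of Balb/c against NSG in wild-type tumors (x axis) and in knockout tumors (y axis) for the 74 tested members, coloured by role. Most points lie left of 0 (69 of 74) and above 0 (60 of 74); 14 members lie below 0 on both axes, and of these Ndufa4l2 and Ndufaf4 passed the test on both.

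The knockout comparison in NSG asked what loss of CD95 changes where adaptive immune cells are missing. By edgeR, 0 of 74 members passed, where 0.0131% of all genes did, and 0 had an unadjusted p under 0.05, where 14% of all genes did. DESeq2 also called 0 members, where it called 2.22% of all genes. The median member log2 change was -0.07, against 0.01 over all genes. It was 0.025 with total-count scaling and 0.036 after removal of GC content and length trends, so its sign depended on the processing. The 3 members with the smallest p were Ndufab1, the mitochondrial acyl carrier protein, at 0.37 (SE 0.19, adjusted p = 0.411 by edgeR), Cox7a2l at -0.36 (SE 0.19, adjusted p = 0.434 by edgeR) and Ndufs6 at -0.37 (SE 0.22, adjusted p = 0.465 by edgeR).

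In Balb/c mice the fitted level was higher in the knockout for 72 of 74 members, but almost none passed the adjusted threshold. By edgeR, 1 member passed, where 0.0457% of all genes were higher in the knockout: Uqcr11, with 16.4 and 20.0 CPM in wild type and 50.7 and 47.6 CPM in knockout (log2 fold change 1.43, SE 0.17, adjusted p = 0.0450 by edgeR). An unadjusted p under 0.05 was found for 60 members, all higher in the knockout, where 16.6% of all genes were. Both knockout libraries lay above both wild-type libraries for 66 members, against 32.9% of all genes. DESeq2 called 38 members higher, where it called 4.76% of all genes. The median member log2 change was 0.79, against 0.06 over all genes, and 0.47 without clone 54 of Balb/c, with 67 members higher and 7 lower. The comparison shares its wild-type libraries with the host comparison in wild type and its knockout libraries with the host comparison in knockout, so these results are not independent of each other. Uqcr11 passed in 7 of 16 alternatives, with adjusted p up to 0.302 and a log2 fold change of 1.22 or more in each of the 16. It was not called after removal of GC content and length trends or when only the 4 Balb/c libraries were fitted, and in both of those fits 0% of all genes were called. It was also lost without any single library other than clone 69 of Balb/c. Without clone 69 the knockout group held 1 library, and the median member log2 change was 0.96.

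By role, the unadjusted p was under 0.05 for 6 of 7 core and 28 of 29 accessory subunits of complex I, all 4 of complex II, all 8 of complex III, 10 of 11 of complex IV, Cycs and Cox7a2l. It was under 0.05 for 2 of 8 assembly factors and 0 of 5 tested restricted isoforms, where 16.6% of all genes were higher at that p. Next to Uqcr11 stood Ndufv3, an accessory subunit of the NADH-oxidising module, with 24.2 and 26.7 CPM in wild type and 59.3 and 48.7 CPM in knockout (log2 fold change 1.09, SE 0.16, adjusted p = 0.0564 by edgeR). Cox7a2, the widely expressed partner of the muscle isoform Cox7a1, had 42.2 and 45.1 CPM in wild type and 82.5 and 80.7 CPM in knockout (log2 fold change 0.90, SE 0.14, adjusted p = 0.0564 by edgeR). In both genes the knockout libraries lay above the wild-type libraries, and the clones were closer together in Cox7a2 than in Ndufv3.

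Sdha, Sdhc, Cycs and Ndufs1 were read by clone. Sdha had 106 and 107 CPM in Balb/c wild type, 174 CPM in clone 54 and 129 CPM in clone 69, a log2 change of 0.50 (SE 0.18, adjusted p = 0.108 by edgeR). Sdhc had 31.6 and 36.7 CPM, then 82.5 CPM in clone 54 and 50.0 CPM in clone 69 (log2 fold change 0.96, SE 0.25, adjusted p = 0.0651 by edgeR). Cycs had 63.4 and 62.6 CPM in the clones, nearly level, against 42.3 and 40.3 CPM in wild type (log2 fold change 0.61, SE 0.17, adjusted p = 0.0699 by edgeR). Ndufs1 had 65.5 and 56.5 CPM in the clones against 55.0 and 53.4 CPM (log2 fold change 0.17, adjusted p = 0.474 by edgeR), and without clone 54 its log2 change was -0.04. None of these 4 genes passed the adjusted threshold.

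The difference of the knockout effect between hosts, which is also the difference of the host effect between CD95 states, was tested directly. By edgeR 0 members passed, as did 0% of all genes, and 52 members had an unadjusted p under 0.05 and a knockout effect that was more positive in Balb/c, where 12.4% of all genes did. DESeq2 called 13 members, all more positive in Balb/c, where it called 2.63% of all genes in that direction. The median difference over members was 0.79, against 0.03 over all genes, and it was 0.57 after removal of GC content and length trends. Uqcr11 had the smallest p, with a difference of 1.39 (SE 0.24, adjusted p = 0.0786 by edgeR), followed by Ndufv3 at 1.23 (SE 0.23, adjusted p = 0.0794 by edgeR) and the core subunit Ndufs8 at 1.19 (SE 0.24, adjusted p = 0.0868 by edgeR). Without clone 69 of Balb/c, which leaves 1 library in that group, the median difference was 0.99. Over both hosts, with host as a term, edgeR again called 0 members and 0% of all genes, and 17 members had an unadjusted p under 0.05, all higher in the knockout, where 8.61% of all genes were. DESeq2 called 0 members there and 4.54% of all genes, and the smallest adjusted p by edgeR was 0.205, for Ndufab1 (log2 fold change 0.50, SE 0.14).

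Of the 5 tested isoforms of restricted expression, 1 fell in the host comparison in wild type, and 1 fell and 1, Cox6a2, was called higher in that in knockout. Of all genes, 16.2% fell in the former, and 15.4% fell and 15.7% rose in the latter, so these counts are near the background. Ndufa4l2, a paralog of Ndufa4 known to be induced by HIF-1 in low oxygen, had 18.1 and 17.8 CPM in NSG wild type, 14.3 and 12.6 in NSG knockout, 4.76 and 2.43 in Balb/c wild type and 5.08 and 2.55 in Balb/c knockout. Every Balb/c library lay below every NSG library. The host log2 change was -2.33 in wild type (SE 0.41, adjusted p = 0.00718 by edgeR) and -1.80 in knockout (SE 0.40, adjusted p = 0.0127 by edgeR), so that Ndufa4l2 and Ndufaf4 were lower in Balb/c by the test in both CD95 states. As a share of the Ndufa4 and Ndufa4l2 counts together, Ndufa4l2 made up 19.8% (95% exact interval 17.7 to 22.1) and 22.5% in NSG wild type, 16.4% and 17.1% in NSG knockout, 11.8% and 5.89% in Balb/c wild type and 8.74% and 4.35% (3.05 to 6) in Balb/c knockout. Such intervals cover counting error only. Within Balb/c the 2 lines of a group differed more than wild type and knockout did, and the knockout log2 fold change of Ndufa4l2 was 0.11 (adjusted p = 0.871 by edgeR).

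Cox4i2, the isoform of Cox4i1 known from lung and low oxygen, was at 0.42 and 2.40 CPM in NSG wild type, 1.39 and 0.20 in NSG knockout, 3.14 and 4.37 in Balb/c wild type and 1.27 and 1.31 in Balb/c knockout. Its share of the Cox4i1 and Cox4i2 counts was highest in Balb/c wild type, at 2.67% (1.89 to 3.67) and 3.21% (2.47 to 4.08), and at most 1.49% (1 to 2.13) elsewhere. The fold changes passed in neither the host comparison in wild type (1.44, SE 0.83, adjusted p = 0.213 by edgeR) nor the knockout comparison in Balb/c (-1.54, SE 0.83, adjusted p = 0.240 by edgeR), and the 2 NSG wild-type libraries themselves held 6 and 29 counts. Cox4i2 and Cox4i1 thus had group means in opposite order between the Balb/c groups, with the Cox4i2 difference not past the test.

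Cox6a2, the heart and muscle isoform of Cox6a1, had 2 and 5 counts in NSG wild type, 1 and 2 in NSG knockout, 21 and 9 in Balb/c wild type and 61 and 28 in Balb/c knockout, and it passed the filter only through Balb/c. Set against 3 counts in each NSG knockout library, its level in Balb/c knockout was at least 8.51-fold higher. Because the gene entered the fit through the group where it is high, its fitted p is not read as support. Cox7a1, the other muscle isoform, had 1.87 and 2.07 CPM in NSG wild type, 1.71 and 1.89 in NSG knockout, 1.36 and 3.53 in Balb/c wild type and 3.44 and 3.14 in Balb/c knockout. Its groups overlapped in wild type and did not overlap in knockout, where the host log2 fold change of 0.87 did not pass (SE 0.48, adjusted p = 0.210 by edgeR). Skeletal muscle markers summed to 16.4 and 24.3 CPM in NSG wild type, 30.7 and 38.5 in NSG knockout, 10.9 and 53.9 in Balb/c wild type and 7.78 and 48.2 in Balb/c knockout, with 14 of 14 above 0 in some library. The part of muscle cells in the Cox6a2 counts was not tested. Cox6b2 had 13, 2, 7 and 6 counts in NSG and 1, 2, 6 and 3 in Balb/c, and passed no test.

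**Figure D4:**
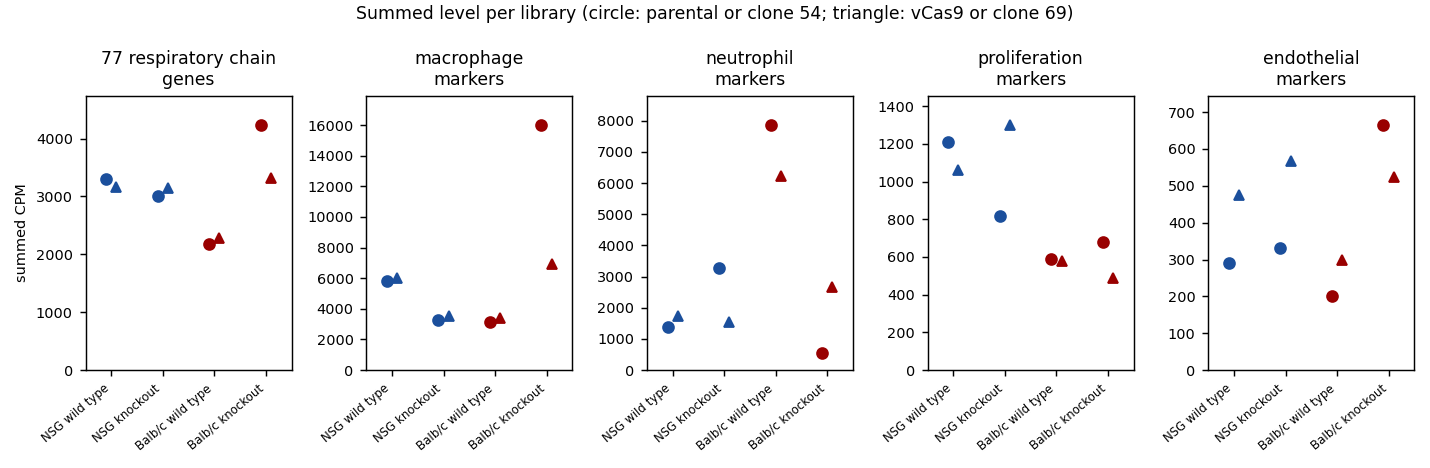
Summed CPM per library, on linear axes from 0, for the 77 respiratory chain genes and for the macrophage, neutrophil, proliferation and endothelial marker lists. Circles are the parental line or clone 54 and triangles the vCas9 line or clone 69. Clone 54 in Balb/c has the highest respiratory chain sum (4235 CPM) and the highest macrophage sum (16000 CPM), and the wild-type Balb/c libraries have the highest neutrophil sums (7860 and 6240 CPM).

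Markers of other cells and of proliferation moved with the groups, and their part in the respiratory chain results was not tested. Clone 54 of Balb/c, with the highest respiratory chain sum, had the lowest epithelial tumor marker sum (761 CPM) and the highest macrophage sum. The 10 macrophage markers summed to 5790 and 6010 CPM in NSG wild type, 3240 and 3510 in NSG knockout, 3140 and 3430 in Balb/c wild type and 16000 and 6940 in Balb/c knockout. All 10 had an unadjusted p under 0.05 and higher levels in the Balb/c knockout than in the Balb/c wild type, where 16.6% of all genes did, and 0 of the 10 passed edgeR's adjusted threshold. By that threshold 8 rose and 0 fell in the host comparison in knockout, where 15.7% and 15.4% of all genes did. In the host comparison in wild type 1 rose and 3 fell, where 15.3% and 16.2% of all genes did. The 10 neutrophil markers summed to 1380, 1740, 3260 and 1530 CPM in the NSG libraries, 7860 and 6240 in Balb/c wild type and 549 and 2670 in Balb/c knockout. Of these markers, 6 rose and 0 fell in the host comparison in wild type, where 15.3% and 16.2% of all genes did. In that in knockout 1 rose and 1 fell, where 15.7% and 15.4% of all genes did. The 8 endothelial markers summed to 290 to 567 CPM in NSG, 202 and 299 in Balb/c wild type and 665 and 523 in Balb/c knockout. The 14 proliferation markers summed to 815 to 1300 CPM in NSG and 486 to 679 in the 4 Balb/c libraries, so that they were low in both Balb/c groups, unlike the respiratory chain sum. Of these 14, 12 fell in the host comparison in wild type, where 16.2% of all genes did. In that in knockout 11 fell, where 15.4% of all genes did, and 1 rose, Pcna, a replication clamp (1.07). The 8 B cell markers summed to 1.8 to 2.82 CPM in NSG, 224 and 47.2 in Balb/c wild type and 8.89 and 13.7 in Balb/c knockout, and 7 of the 8 were lower at an unadjusted p under 0.05 in the knockout comparison in Balb/c, where 14.3% of all genes were, with a median log2 fold change of -3.61. By edgeR's adjusted p, 0 of the 8 passed there. The fibroblast markers summed to 18200, 26700, 34800 and 30400 CPM in the NSG libraries, 13500 and 9270 in Balb/c wild type and 12300 and 4330 in Balb/c knockout. Of 9 fibroblast markers, 7 fell in the host comparison in knockout, where 15.4% of all genes did, and 1 in that in wild type, where 16.2% did. The adipocyte markers summed to 158 to 281 CPM in NSG, 90.5 and 141 in Balb/c wild type and 409 and 379 in Balb/c knockout. Of the 9, 3 and 5 fell in the host comparisons in wild type and knockout, where 16.2% and 15.4% of all genes did. In knockout 7 of the 9 had a log2 fold change below 0 and 2 above, with a median of -2.38, against the higher sum. In each of these lists every gene was above 0 in some library.

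Related mitochondrial genes were read from lists outside the naming rule. Of 17 tested genes of ATP synthase and its inhibitor, 11 fell in Balb/c wild type against NSG wild type and 0 rose, where 16.2% of all genes fell and 15.3% rose, with a median log2 fold change of -0.70. Atpif1, the inhibitor, fell by 1.21 (SE 0.19, adjusted p = 0.00493 by edgeR), and Atp5g1 and Atp5g2, which encode the proton-carrying ring, changed by -1.15 and -0.93. In the Balb/c knockout comparison 0 of the 17 passed, 16 had an unadjusted p under 0.05 and were higher in the knockout, where 16.6% of all genes were, and the median was 0.77. Of 13 TCA cycle genes, 6 fell in the wild-type host comparison and 0 rose, with a median of -0.48, among them Fh1 (fumarase, -0.91) and the NAD-dependent isocitrate dehydrogenase subunits Idh3g (-0.79) and Idh3a (-0.75). In the host comparison in knockout 0 of 17 ATP synthase and 0 of 13 TCA cycle genes passed, where 15.7% of all genes rose and 15.4% fell. Their medians were 0.22 and 0.16. Of 12 pyruvate entry genes 2 fell in the wild-type host comparison, Pdk1 and Dlat, a count near the 16.2% of all genes.

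Most members are short transcripts, and from 500 bases up the median fold change over all genes differed by transcript length. The longest annotated transcript of a tested member had a median of 1064 bases, against 3281 for all tested genes, and 41 of the 73 members with a principal transcript had one under 1000 bases, against 6.65% of all genes. In the knockout comparison in Balb/c, the 688 tested genes of 500 to under 1000 bases had a median log2 fold change of 0.52, those of 1000 to under 2000 0.33, those of 2000 to under 4000 0.13 and longer genes -0.17. The 183 genes under 500 bases did not continue this order, at -0.03, nor did they in the host comparisons, at 0.11 in wild type and 0.20 in knockout. The members in the 4 classes from 500 bases up were at 0.90, 0.72, 0.66 and 0.61, the last over 2 genes, above the class median in each. In the host comparison in wild type, members of these lengths were at -0.52, -0.62, -0.65 and -0.12, against -0.28, -0.23, -0.12 and 0.05 for all genes. In the host comparison in knockout, members of these lengths were at 0.34, 0.28, 0.11 and 0.27, against 0.30, 0.17, 0.03 and -0.10 for all genes. With trends in GC content and length removed from each library, the members' median was 0.64 for the knockout in Balb/c. The part of length in the members' changes was not tested beyond these values.

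**Figure D5:**
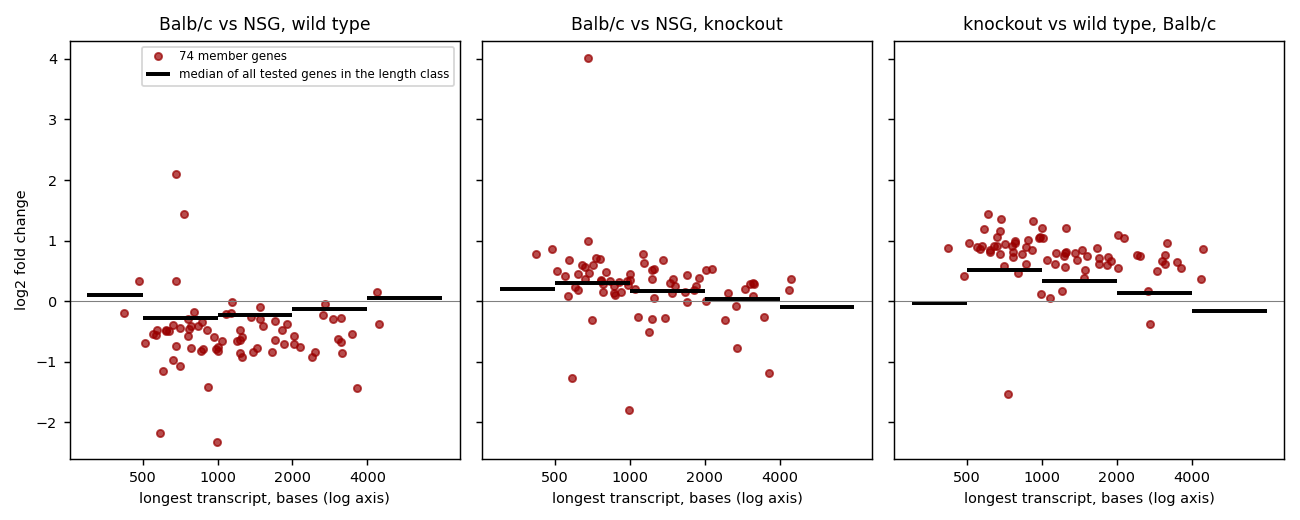
Log2 fold change of the 74 tested members (points) against the length of their longest transcript (log axis), with black bars for the median of all tested genes in each length class (the outer classes are open-ended). For the knockout in Balb/c the bar at 500 to under 1000 bases is at 0.52 and the members of that class have a median of 0.90, while for the host in knockout tumors the values are 0.30 and 0.34.

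Shared exons limit some members. By the annotation, 25 members had an exon that overlaps another gene, 23 of them on the opposite strand, and the strand setting of the counting is not given in the sources used here. Ndufa4l2 overlaps Shmt2, which encodes a mitochondrial serine enzyme and also fell in the wild-type host comparison (-1.38, adjusted p = 0.0232 by edgeR). Cox6a2 overlaps Itgad, an integrin gene that went the other way, with 4.87 to 7.38 CPM in NSG and 0.49 to 0.69 CPM in Balb/c. Ndufb2 overlaps Braf, which rose in Balb/c wild type (1.59, adjusted p = 0.00508 by edgeR), and Ndufb2 was among the 5 tested members with a log2 fold change above 0 there. Uqcr11 and Ndufaf4 were not among the 25.

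Promoters were read for these genes because members of all complexes were low together in Balb/c wild type. RefSeq sequence of the GRCm38.p6 build, 250 bases before to 50 after a gene's start, was matched by name for 62 members. The NRF1 letters CGCATGCG, which read the same on both strands, were in 8 of the 62 (12.9%) and in 2.07% of all genes with such a promoter. The ETS letters bound by GABPA, CCGGAAGT on either strand, were in 4 members (6.45%) and 4.31% of all genes. The YY1 letters AAGATGGCG were in 6 members (9.68%) and 1.64% of genes, the ERRA letters TCAAGGTCA in 1 member (1.61%) and 0.466% of genes, and the hypoxia response letters ACGTG in 13 members (21%) and 21.8% of genes, again on either strand. The gene shares for these letters cover all 27025 genes with such a promoter, not only those that passed the filter on low counts. Shares among genes past the filter were not computed, so whether members differ from other expressed genes was not tested. None of these letter strings holds another of them, and a match is a description of the sequence, not of binding. Printed here are 60 bases upstream of Uqcr11, the single member called in the Balb/c knockout comparison, and of Ndufaf4, called lower in Balb/c in both CD95 states; capitals mark the ETS letters in Uqcr11 (chr10:80406854-80406913, minus strand) and the NRF1 letters in Ndufaf4 (chr4:24897945-24898004, plus strand).
Uqcr11: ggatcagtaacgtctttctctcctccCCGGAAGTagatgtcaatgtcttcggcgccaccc
Ndufaf4: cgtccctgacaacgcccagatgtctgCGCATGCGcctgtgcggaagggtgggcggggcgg
Uqcr11 was at 18.2 CPM on average in Balb/c wild type and 49.2 CPM in Balb/c knockout. Ndufaf4 had 7.05 and 4.92 CPM in Balb/c wild type and 11.7 and 5.62 CPM in Balb/c knockout, where its log2 fold change of 0.55 did not pass.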

How the data were processed

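RNA sequencing of 8 tumor libraries was deposited as raw counts per Ensembl gene, with 1 library a file, per the file headers. The submitters' processing notes name cutadapt 1.13, STAR, HTSeq 0.6.1p1 and DESeq2 and the builds mm10 and hg19, without roles; strand setting, annotation release, filters and pooling of tumors are not given in the sources used here. Per the labels' protocols, total RNA was extracted with a miRNeasy kit and DNase.

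Groups were host strain by CD95 status. Symbols, gene types and lengths came from GENCODE M21, which held 24991 of the 25006 identifiers. The quasi-likelihood test of edgeR 4.0.16 in R 4.3.3 (TMM, filterByExpr) was run on the counts in a single fit of 4 group means, which left 4 residual degrees of freedom; the effect over both hosts used an additive host term. The Benjamini-Hochberg adjustment covered all 15310 genes that passed the filter, and 0.05 was the threshold. SE was the absolute log2 fold change divided by the root of F. The fits were tested on simulated data. CPM used TMM-scaled totals, and 3 counts corresponded to 0.159 to 0.321 CPM. Alternatives were RLE and total-count scaling, other filters, DESeq2 1.42.0, limma-voom 3.58.1, offsets that remove trends with GC content and length, fits of only 4 libraries, the cell line as a replicate block, and leaving out each library.

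The line names in the labels pair libraries across hosts. The difference between clones 54 and 69 correlated at -0.353 between hosts over all tested genes, and that between the wild-type lines at 0.087.

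The members, the 12 marker lists and 10 pathway lists were chosen with earlier results of these data known. Genes given with a fold change were the up to 10 members per direction with the largest change among those passing, or the 3 with the smallest p where fewer than 3 passed, plus isoform pairs, Sdha to Sdhd, Cycs, Ndufs1, Ndufv1, Uqcrc1 and Uqcrfs1 in the host comparison in wild type and the knockout comparison in Balb/c, and in each list the up to 3 with the largest change among those passing. Other members are given by level. Shmt2, Itgad and Braf were added for their overlap. Nrf1, Cox7a1 for the host in knockout and Ndufaf4 for the knockout in Balb/c were added outside these rules, though they did not pass.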

Additional observations from a re-analysis of the deposited data

How the results depend on the processing

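Shares of all genes in this section count calls in either direction unless a direction is named. Scaling to total counts gave 45 lower members in the host comparison in wild type (60.8%, against 34.1% of all genes called). It also gave a median of -0.71 there and moved the median of all genes to -0.24. In knockout tumors it gave 7 calls (3 higher, 4 lower; 9.46%, against 30.7%) and a median of 0.093, with all genes at -0.17. Offsets for GC content and length gave 7 calls and a median of 0.063 for the host in knockout, 0 calls (0% of all genes too) and a median of 0.64 for the knockout in Balb/c, where Ndufa4l2 reversed to -0.18, and a median of 0.57 for the difference between hosts. With line as a replicate block, 6 members were called for the host in wild type and 3 in knockout, and 9 and 1 when the offsets were added (12.2% and 1.35%, against 13.1% and 18.2% of all genes), with medians of 0.057 for the host in knockout and 0.55 for the difference. The block gave 0 calls for the difference, and it was not run for the knockout comparisons, since no line has both CD95 states. A block that crosses the 2 clones between hosts, chosen after seeing the data, gave 2 calls for the difference (2.7% of members, 2.01% of all genes). Fitting only the 4 libraries compared gave 2 calls for the host in knockout (2.74%, against 16.8% of all genes) and 0 for the knockout in Balb/c (0% of all genes too). Without a filter on low counts the knockout in Balb/c had 32 calls (8.52% of all genes were called). The difference had 3 (4% of members, 3.24% of all genes). DESeq2 gave 38 for the knockout in Balb/c, all higher, where it called 4.76% of all genes higher and 14% in either direction. For the difference it gave 13, all more positive in Balb/c, where it called 2.63% in that direction and 6.36% in either. Causes were not tested.

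Leaving out each library in turn gave 2 to 46 calls for the host in wild type, 1 to 27 for the host in knockout with medians of 0.08 to 0.48, 0 to 57 for the knockout in Balb/c with medians of 0.47 to 0.96, and 0 to 43 for the difference with medians of 0.54 to 0.99. The median over both hosts ran from 0.19 to 0.48. The upper counts all came without clone 69 of Balb/c, and the lowest of these medians without clone 54 of Balb/c. With it out, the lone clone 54 library is assumed to vary like the other groups. Cox7a1 ran from -0.46 to 0.84 for the host in wild type and from -0.10 to 1.19 for the knockout in Balb/c, Ndufa4l2 from -0.58 to 0.67 and Ndufs1 from -0.042 to 0.28 for the latter. The medians of the host comparison in wild type kept their sign under every alternative run, as did those of the knockout in Balb/c and of the difference. Genes under 3 counts a library, such as Cox6a2 in NSG knockout, are limited by depth.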

Other observations

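Regulators of mitochondrial gene expression were read from a list of 13 tested genes. In Balb/c against NSG wild type 2 rose and 0 fell, where 15.3% of all genes rose and 16.2% fell, so the count of higher genes is near the background: Gabpb1 (1.21, SE 0.30, adjusted p = 0.0219 by edgeR) and Gabpb2 (0.50, SE 0.16, adjusted p = 0.0491 by edgeR), which encode partners of GABPA. Nrf1 had 41.1 and 38.8 CPM in NSG wild type, 36.5 and 39.5 in NSG knockout, 50.1 and 50.1 in Balb/c wild type and 35.9 and 44.4 in Balb/c knockout. The wild-type groups did not overlap, as for 35.4% of all genes in that direction, and the change of 0.33 did not pass (SE 0.16, adjusted p = 0.151 by edgeR). Pprc1, a PGC-1 family coactivator, fell in Balb/c against NSG knockout (-0.98, SE 0.15, adjusted p = 0.00288 by edgeR).

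Assembly genes outside the naming rule were read in the host comparison in wild type. There 1 of 8 further complex I factors fell (Nubpl, an iron-sulfur carrier, -1.12), 0 of 4 complex II factors passed, 1 of 6 complex III factors fell (Uqcc2, -0.99), and of 17 tested complex IV factors 1 rose (Cox17, a copper chaperone, 1.07) and 0 fell. These counts are near or below the 16.2% of all genes that fell and the 15.3% that rose. Among other electron donors to ubiquinone, 2 of 6 fell, Dhodh (-1.15) and Etfa (-0.63). In the knockout comparison in Balb/c, 0 genes of these lists passed by edgeR. An unadjusted p under 0.05 and a higher level in the knockout were found for 4 of the 8 complex I, 1 of the 4 complex II, 1 of the 6 complex III and 9 of the 17 complex IV factors and 3 of the 6 electron donor genes, where 16.6% of all genes had them.

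The hypoxia list had 12 genes, of which 1 rose and 3 fell in the wild-type host comparison, where 15.3% of all genes rose and 16.2% fell. In that in knockout 2 rose and 1 fell, where 15.7% and 15.4% of all genes did. For the knockout in NSG, 9 of the 12 were lower at an unadjusted p under 0.05, where 1110 of 15310 genes were. Their median log2 fold change was -0.72. For the knockout in Balb/c, 1 was higher and 2 were lower at that p, where 16.6% and 14.3% of all genes were. By edgeR's adjusted p, 0 of the 12 passed in either knockout comparison.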
